A study of Homo sapiens with 8 samples.

Results

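The expression of 10 nuclear genes of mitochondrial protein quality control was followed through the series: the chaperones HSPD1, HSPE1, HSPA9, DNAJA3 and TRAP1, the proteases LONP1, CLPP with its partner CLPX, and the stress relay genes OMA1 and DELE1. They were taken as a list of 10 named genes, matched from Entrez number to symbol, out of 22653 entries in the files. All 10 had reads in all 8 libraries and all 10 passed the filter on low counts, which 17503 entries passed. Poly(A) RNA was sequenced from U937 cells, a human monocytic line, that lacked SLC19A1 and carried a doxycycline-inducible, Flag-tagged transporter. The 4 groups were the SLC7A2 line with doxycycline (dox), the SLC7A2 line without dox, the SLC7A1 line with dox and the SLC7A1 line without dox, each with 2 libraries. Dox was given at 1 µg/mL for 24 h, and SLC19A1-/- is shared by all groups, the controls included. The labels do not say whether a line is a clone or a pool, or whether the libraries numbered 1 and 2 came from separate cultures, so p-values measure only the spread between these libraries. No group without a construct received dox, so the drug and the induced transporter cannot be told apart within a line.

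Mitochondria import most of their proteins unfolded. In the matrix, HSPA9 pulls in and folds incoming chains with its co-chaperone DNAJA3, and the chaperonin HSPD1 with its lid HSPE1 completes folding, while LONP1 and the CLPX-CLPP complex degrade damaged proteins. When the inner membrane is disturbed, the protease OMA1 cleaves DELE1, which then activates the kinase EIF2AK1 in the cytosol and with it the integrated stress response. Tetracyclines such as dox can hinder the bacterial-type ribosome of mitochondria, which is why these genes are of interest where dox is the inducer. Cleavage of DELE1 is a protein event and was not measured here.

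Library totals ran from 17309132 to 18441833 expected counts, and the constructs were induced in every library with dox. Libraries of the same group differed in both lines. On the first principal component the 2 SLC7A2-line libraries numbered 2 lay at 68.1 with dox and 55.3 without, against -52.7 to -3.67 in the other 6. The SLC7A1-line libraries numbered 1 were lowest on it, at -34.8 with dox and -52.7 without. On the second component these lay at 46.0 and 29.1, against -31.4 and -42.2 in the SLC7A1-line libraries numbered 2. Flag-tagged SLC7A2 also differed within the SLC7A2 dox group, with 4947 CPM (counts scaled to the library total) in number 2 and 264 in number 1. The monocytic label held, since 13 of 13 monocytic or myeloid markers were listed, with a summed level of 7677 to 17390 TPM (a level per transcript length, scaled to a fixed total). The lowest sum was in the SLC7A2 dox library numbered 2. T cell markers summed to at most 0.27 TPM. The fibroblast markers summed to 14.7 TPM in the SLC7A2 no-dox library numbered 2 and to 0.64 to 2.01 TPM in the other 7. Epithelial markers lay at 0.76 to 3.07 TPM and B cell markers at 20.7 to 34.2 TPM, with MS4A1 at 0. In such bulk libraries fewer cells of a type and less RNA per cell cannot be told apart. The part of these differences between libraries in the results below was not tested.

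HSPD1 and HSPE1 are neighbours that are read away from each other. In GRCh38.p14, HSPD1 lies on chromosome 2 from 197486584 to 197500274 on the minus strand, and HSPE1 lies at 197500379 to 197503449 on the plus strand. The stretch between their starts, chr2:197500275-197500378, is 104 bases long with a GC content of 74%. It held 0 matches to the motifs searched for below. RefSeq also gives HSPD1 a second start, at 197499840, and the promoter window of that start holds a run of heat shock units. These units are alternating GAA and TTC triplets that begin 5 bases apart, the form bound by heat shock factors, and the run reads the same kind of unit on both strands. It is shown because HSPD1 and HSPE1 are the members that vary most between libraries. Among the member windows only that of HSPD1 held the run, and not that of HSPE1. A part of the run in the variation of either gene was not tested. The only other member promoter with a pair of such units is that of HSPA9. In both lines below the capitals mark the triplets and the bases between them, and each sequence is on the gene's own minus strand in RefSeq, GRCh38.p14.
HSPD1, chr2:197500061-197500090: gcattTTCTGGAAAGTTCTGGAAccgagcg
HSPA9, chr5:138575387-138575416: tggttggaggtTTCCAGAAgcgctgccgcc

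The HSPD1 site has 4 alternating units in 18 bases and lies 189 to 206 bases inside the gene from its first start. In GENCODE 29 it falls in an intron of 3 HSPD1 transcripts, in a UTR of 1 further HSPD1 transcript and in a UTR of 1 of the 7 HSPE1 transcripts. Among 35116 RefSeq promoter windows, of 250 bases before and 50 after a start, 12 (0.0342%) held a run of at least 4 such units, and that of HSPD1 was among them. A run of at least 3 units was in 172 windows (0.49%). The HSPA9 site has 2 units and spans the annotated start. Of all windows, 7.74% held the letters TTCNNGAA and 6.77% held GAANNTTC, and these matches can overlap. The core motif of NRF1, CGCATGCG, which reads the same on both strands and belongs to a regulator of nuclear genes for mitochondria, was in 2.02% of windows and in those of DNAJA3 and LONP1. The ATF4-CHOP core TTGCATCA, searched on both strands, was in 0.866% of windows and in none of the 11 windows of 9 members. CLPP had no window in the table. A match is a string of letters and not evidence of binding.

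Levels per length differed widely between the members. HSPE1 averaged 1353 ± 438 TPM and HSPD1 778 ± 248 TPM over the 8 libraries (SD, n = 8), and HSPE1 was above HSPD1 in 8 of 8 libraries. TRAP1 (222 ± 22.4 TPM) and LONP1 (218 ± 14.5 TPM) came next and did not differ beyond their spread, with TRAP1 the higher in 5 of 8 libraries. HSPA9 averaged 158 ± 28.2 TPM and was below LONP1 in 7 of 8 libraries. DNAJA3 averaged 77.4 ± 5.95 TPM and CLPP 55.1 ± 4.16 TPM, each above the next gene in order in 8 of 8 libraries. CLPX (22.6 ± 3.57 TPM), DELE1 (19.6 ± 2.62 TPM) and OMA1 (15.97 ± 2.87 TPM) were the lowest. CLPX was above DELE1 in 6 of 8 libraries and DELE1 above OMA1 in 6 of 8, so neighbours in this order were not separated in every library. The matrix chaperonin pair was thus the most abundant of the members.

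**Figure D1:**
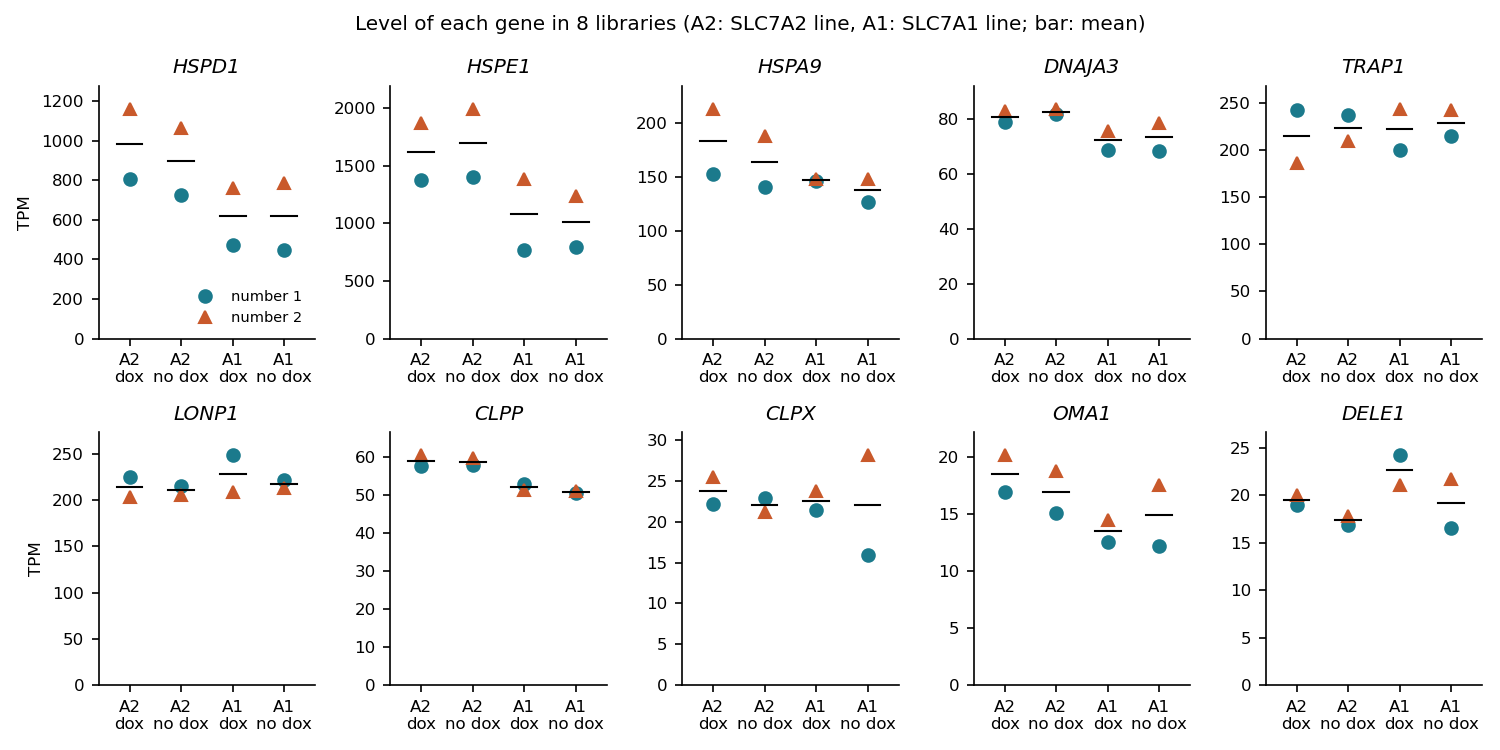
TPM of each gene in the 8 libraries, 1 panel per gene with its own axis from 0. Circles are libraries numbered 1, triangles those numbered 2, and bars are group means. HSPD1 ran from 448 to 1159.9 TPM, with its 2 highest values in the SLC7A2-line libraries numbered 2, whereas CLPP stayed between 50.4 and 60.4 TPM.

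Dox changed none of the 10 genes detectably in either line or over both. The first comparison asks whether dox with an induced transporter shifts these genes, and was fitted with edgeR's quasi-likelihood test over all 17503 entries. Over both lines, the fitted log2 fold changes of dox over no dox lay between -0.09 and 0.08, with 5 of 10 members above 0 and 5 below. Their median was -0.0031, against 0.0054 over all entries tested. No member was called at an adjusted p under 0.05, and neither was any entry, so percent called was 0. At an unadjusted p under 0.05 there were 0 members, against 261 of 17503 entries (1.49%). DESeq2 called 1 entry and limma on log2 TPM called 0, with 0 members in both. With the number of the library as a block, edgeR called 3 entries (0.0171%) and DESeq2 89 (0.508%), again with 0 members. The 95% intervals of the 10 members all lay between -0.49 and 0.51, and the widest were those of HSPD1 and HSPE1. With the block, which takes out the step between library numbers within a line, the interval was -0.07 to 0.14 for HSPD1 and -0.26 to 0.19 for HSPE1, and each other member's lay between -0.29 and 0.24.

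Among the chaperones, HSPD1 had 805 and 1159.9 TPM in dox-treated SLC7A2-line cells, against 728 and 1064 TPM without dox. SLC7A1-line HSPD1 levels were 475 and 761 TPM with dox, against 448 and 785 TPM without dox. The arms overlapped in both lines, and the 2 libraries of a group lay further apart than the group means. The fitted log2 fold change over both lines was 0.03 ± 0.21 (SE, 4 libraries in each arm), with a 95% interval of -0.44 to 0.51 and an adjusted p of 1.00 by edgeR. HSPE1 had 1379 and 1867 TPM in dox-treated SLC7A2-line cells, against 1400 and 1992.5 TPM without dox. SLC7A1-line HSPE1 levels were 769 and 1389 TPM with dox, against 795 and 1236 TPM without dox. Its log2 fold change was -0.15 ± 0.31 in the SLC7A2 line and 0.12 ± 0.31 in the SLC7A1 line, and the difference between these, -0.27 ± 0.43, had an adjusted p of 1 by edgeR.

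HSPA9, the import motor and folding chaperone, had 153 and 213 TPM in dox-treated SLC7A2-line cells, against 140 and 188 TPM without dox. In the SLC7A1 line it had 146 and 148 TPM with dox, against 127 and 148 TPM without dox. On the TMM-scaled CPM used in the test, HSPA9 was higher with dox in 4 of 4 same-numbered pairs, by 0.06 to 0.09 on the log2 scale. On TPM it was higher in 3 of 4, so the count depends on the scaling. Of 7879 entries whose mean log2 CPM reached 4, 7.88% were higher with dox in 4 of 4 pairs and 7.93% were lower. The fitted change was 0.08 ± 0.10 with a 95% interval of -0.15 to 0.31, and HSPA9 was not called. With the block in edgeR it was 0.08 ± 0.04, with an interval of -0.02 to 0.18 and an adjusted p of 0.837. With the block in DESeq2 its unadjusted p was 0.0369, under 0.05 as in 1188 of 17503 entries, and its adjusted p was 0.672. Its co-chaperone DNAJA3 ranged from 68.5 to 83.7 TPM over the 8 libraries, with a log2 dox effect of -0.07 ± 0.08 over both lines. TRAP1, an HSP90-type chaperone of the matrix, ranged from 186 to 243 TPM, with a dox effect of -0.09 ± 0.14.

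The proteases moved as little with dox. LONP1, the main soluble protease of the matrix, had 225 and 204 TPM in dox-treated SLC7A2-line cells, against 215 and 206 TPM without dox. For LONP1 in the SLC7A1 line there were 248 and 208 TPM with dox, against 221 and 213 TPM without dox. These arms overlapped, and the log2 fold change over both lines was 0.0065 ± 0.10. CLPP, the proteolytic barrel, ran from 50.4 to 60.4 TPM, the smallest ratio of highest to lowest library of the 10 genes, at 1.20. CLPP had a dox effect of -0.02 ± 0.08 with an interval of -0.20 to 0.16. CLPX, the unfoldase that feeds it, was less even. It had 22.1 and 25.5 TPM with dox and 22.9 and 21.3 TPM without dox in the SLC7A2 line, and 21.4 and 23.8 TPM with dox and 15.9 and 28.1 TPM without dox in the SLC7A1 line. The ratio of CLPX to CLPP in TPM therefore ranged from 0.315 to 0.551, and both of these ends were SLC7A1-line libraries without dox.

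OMA1 had 16.9 and 20.1 TPM in dox-treated SLC7A2-line cells, against 15.1 and 18.8 TPM without dox. OMA1 in the SLC7A1 line had 12.5 and 14.5 TPM with dox, against 12.2 and 17.6 TPM without dox. The arms overlapped in both lines, and the fitted effects were 0.05 ± 0.20 in the SLC7A2 line and -0.14 ± 0.20 in the SLC7A1 line. DELE1 had 18.9 and 20.0 TPM in dox-treated SLC7A2-line cells, against 16.9 and 17.8 TPM without dox. In the SLC7A1 line DELE1 had 24.2 and 21.1 TPM with dox, against 16.6 and 21.7 TPM without dox. In the SLC7A2 line both dox libraries lay above both libraries without dox on TPM, and in the SLC7A1 line the arms overlapped. On TMM-scaled CPM the SLC7A2-line arms overlapped too, with 48.8 and 43.0 with dox against 48.4 and 39.8 without. On log2 TPM the median of all entries was itself shifted by 0.05 with dox in that line. The share of entries with such arms of 2 libraries on TPM was not counted. On TMM-scaled CPM DELE1 was higher with dox in 4 of 4 same-numbered pairs, by 0.01 to 0.13 on the log2 scale, and on TPM in 3 of 4. The fitted change over both lines was 0.08 ± 0.10 with an interval of -0.14 to 0.30, and it was not called. With the block in edgeR it was 0.08 ± 0.05 with an interval of -0.05 to 0.21. HSPA9 and DELE1 were the 2 members higher with dox in every pair on CPM, and no member was lower in every pair. No member had dox and no-dox arms that did not overlap over both lines, against 0.491% of entries with dox wholly above and 0.4% with dox wholly below.

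Within the SLC7A2 line alone, the members' dox effects lay between -0.15 and 0.07, with 5 of 10 above 0 and bounds of their 95% intervals from -0.86 to 0.78. Within the SLC7A1 line they lay between -0.14 and 0.12, with 7 of 10 above 0 and bounds from -0.72 to 0.84. By edgeR 0 members and 0 entries were called in either line, and at an unadjusted p under 0.05 there were 0 members in both, against 224 entries (1.28%) in the SLC7A2 line and 222 (1.27%) in the SLC7A1 line. The test of the difference between the lines' dox effects also called 0 members and 0 entries, with 0 members and 222 entries (1.27%) at an unadjusted p under 0.05. DESeq2 called 10, 9 and 20 entries in these 3 comparisons, limma 2, 2 and 3, and neither called a member. The lower limit of detection is set by the spread and not by counts, since the least abundant member, OMA1, had 307 to 460 expected counts. The 95% interval of HSPD1 was -0.68 to 0.78 without a block and -0.12 to 0.24 with it in the SLC7A2 line, and -0.72 to 0.75 without and -0.17 to 0.19 with it in the SLC7A1 line.

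**Figure D2:**
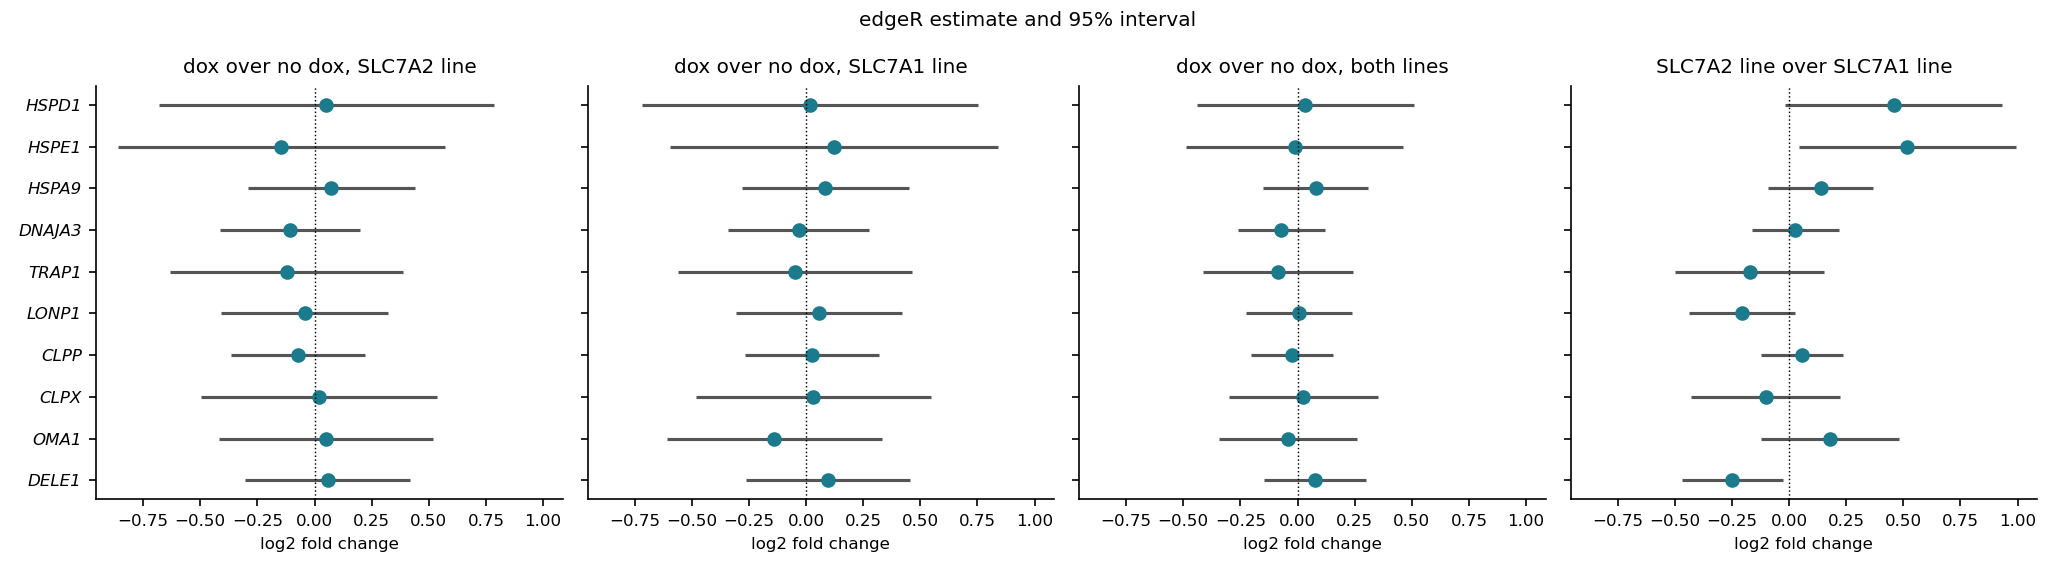
Fitted log2 fold changes (points) with 95% intervals (lines) from edgeR for the 10 genes, in 4 comparisons. The 3 dox panels have 0 inside every interval, and in the panel of the SLC7A2 line over the SLC7A1 line the intervals of HSPE1 (0.04 to 0.99) and DELE1 (-0.47 to -0.03) leave out 0, though neither passed adjustment over all entries.

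The chaperonin pair differed more between libraries than any other member, and the 2 genes did so together. HSPD1 and HSPE1 each spanned 2.59 times between their lowest and highest library in TPM, while their ratio, HSPE1 over HSPD1, spanned only 1.22 times, from 1.58 to 1.92. The lowest libraries of both genes were the SLC7A1-line libraries numbered 1, and the highest were the SLC7A2-line libraries numbered 2. Measured by the root mean square difference of centred log2 CPM over the 8 libraries, HSPE1 was the gene ranked 11 of 6933 in likeness to HSPD1, at 0.109. The 3 nearest genes were SSB, an RNA-binding protein, at 0.08, GOLM1, a Golgi membrane protein, at 0.09 and LUC7L, a splicing factor, at 0.09. Among the other members, OMA1 was next nearest to HSPD1 at rank 568, HSPA9 followed at rank 1365, and LONP1 was the farthest at rank 5692. These likenesses are descriptions over 8 libraries that share lines and numbers.

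**Figure D3:**
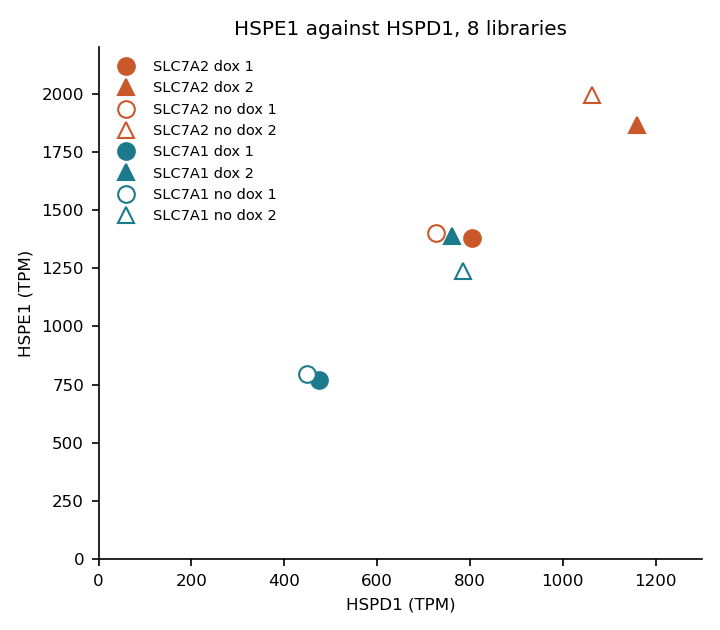
HSPE1 against HSPD1 in TPM, 1 point per library, with filled symbols for dox, open symbols for no dox, circles for number 1 and triangles for number 2. The points rise along 1 direction, with the SLC7A1-line libraries numbered 1 at the low end and the SLC7A2-line libraries numbered 2 at the high end. Between these ends, the SLC7A1-line libraries numbered 2 and the SLC7A2-line libraries numbered 1 lie among each other.

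Between the lines, the largest fitted differences were those of HSPD1 and HSPE1, higher in the SLC7A2 line, and of DELE1 and LONP1, lower in it, and none passed adjustment. The comparison asks whether cells with an inducible SLC7A2 differ from cells with an inducible SLC7A1 at either dox state. HSPD1 averaged 939 ± 206 TPM in the SLC7A2 line and 617 ± 181 TPM in the SLC7A1 line (SD, n = 4 each), with a fitted log2 difference of 0.46 ± 0.21 and an adjusted p of 0.406 by edgeR. HSPE1 averaged 1659.5 ± 316 TPM in the SLC7A2 line and 1047 ± 313 TPM in the SLC7A1 line, with a difference of 0.52 ± 0.21 and an adjusted p of 0.373 by edgeR. In both genes the lines overlapped, because the SLC7A2-line libraries numbered 1 lay near the SLC7A1-line libraries numbered 2. DELE1, on the CPM scale of the test, had 48.8 and 43.0 CPM with dox and 48.4 and 39.8 CPM without dox in the SLC7A2 line. In the SLC7A1 line it had 56.6 and 53.8 CPM with dox and 51.7 and 51.6 CPM without dox. The lines did not overlap, and the fitted difference was -0.25 ± 0.10 with an adjusted p of 0.369 by edgeR.

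DELE1 was the only member whose lines did not overlap on CPM, against 5.11% of all entries wholly below and 4.35% wholly above in the SLC7A2 line. On TPM the DELE1 lines overlapped, and DNAJA3 and CLPP lay wholly above in the SLC7A2 line instead, against 10.2% of entries wholly above and 2.62% wholly below on that scale. CLPP averaged 58.9 ± 1.43 TPM in the SLC7A2 line and 51.4 ± 1.03 TPM in the SLC7A1 line, while its fitted difference on counts was 0.06 ± 0.08. DNAJA3 averaged 81.8 ± 2.12 TPM in the SLC7A2 line and 72.9 ± 5.08 TPM in the SLC7A1 line, with a fitted difference of 0.03 ± 0.08. These small line differences thus turn on the scaling, and the median of all entries shifted by 0.09 between the lines on log2 TPM. LONP1 had a fitted difference of -0.20 ± 0.10, TRAP1 -0.17 ± 0.14, CLPX -0.10 ± 0.14, HSPA9 0.14 ± 0.10 and OMA1 0.18 ± 0.13.

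By edgeR 0 members and 0 entries were called between the lines, so percent called was 0, and at an unadjusted p under 0.05 there were 2 members, HSPE1 and DELE1, against 2242 entries (12.8%). DESeq2 without a block called 351 entries, of which 0 were members, and limma called 0. The 4 libraries of a line are not independent, since the dox and no-dox libraries of the same number deviate together. With each such pair summed, an analysis added after the data were seen, edgeR gave HSPD1 0.46 ± 0.25 and HSPE1 0.52 ± 0.24, each with an adjusted p of 0.942. Without the 2 SLC7A2-line libraries numbered 2, the differences were 0.25 for HSPD1, 0.34 for HSPE1, -0.13 for DELE1, -0.09 for LONP1 and -0.02 for HSPA9.

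The libraries of a group differed in the same members. HSPD1, HSPE1, HSPA9 and OMA1 were higher in number 2 than in number 1 in all 4 groups, on CPM and on TPM, against 18.9% of 7879 entries on CPM. LONP1 was lower in number 2 in all 4 groups on both scales, and DELE1 on CPM alone, against 18.1% of entries on CPM. The DELE1 step on log2 CPM was only -0.0046 in the SLC7A1 line without dox. On TPM DELE1 was higher in number 2 in 3 of 4 groups, and DNAJA3 was higher in 4 of 4 on TPM alone. HSPD1 in number 2 exceeded number 1 by 0.34 and 0.44 on the log2 CPM scale in the SLC7A2 line with and without dox, and by 0.75 and 0.67 in the SLC7A1 line with and without dox. These differences between libraries of 1 group were each larger than the fitted dox effect on HSPD1. The labels give the numbers no meaning such as a day or a batch, and across lines same-numbered libraries deviated together only weakly.

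**Figure D4:**
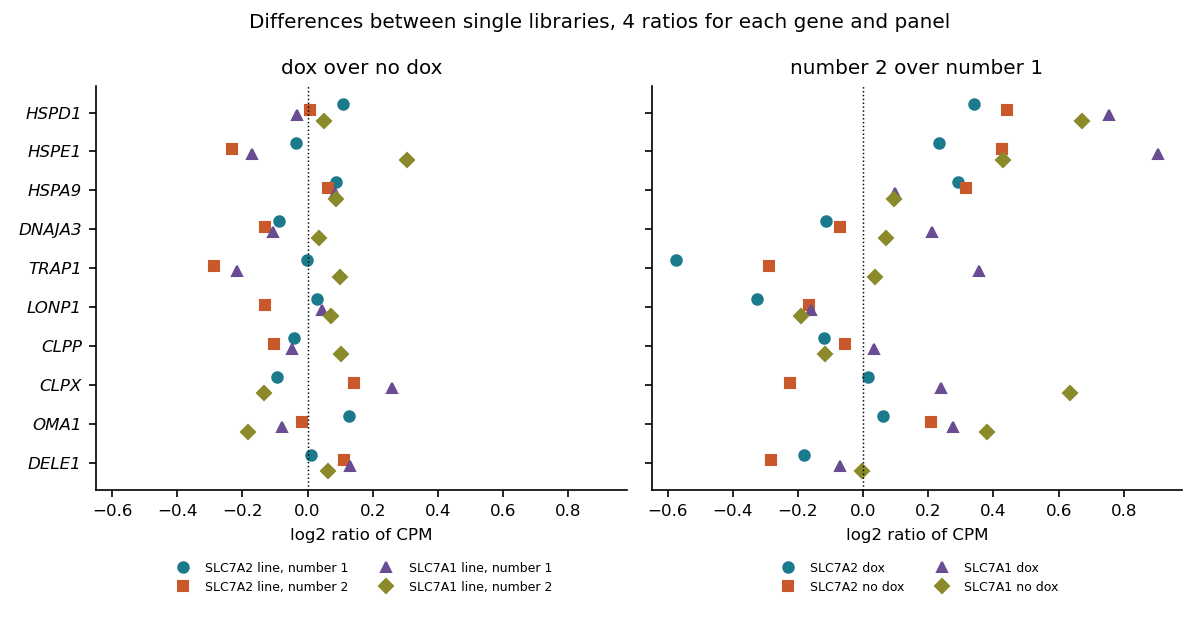
Log2 ratios of CPM between single libraries, 4 per gene in each panel. Left, dox over no dox for libraries of the same line and number. Right, number 2 over number 1 within each group. The dox ratios lay between -0.29 and 0.30, and the number ratios of HSPD1 and HSPE1 lay between 0.23 and 0.90.

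DELE1 and LONP1 had like profiles in the opposite direction. LONP1 ranked 74 of 6933 in likeness to DELE1, at a root mean square difference of 0.08. The 3 genes nearest to DELE1 were SMAP2, an Arf GTPase-activating protein, at 0.03, CCNB2, a mitotic cyclin, at 0.05 and SEC11A, a signal peptidase subunit, at 0.05. HSPD1 and HSPE1 were among the genes farthest from DELE1, at ranks 6723 and 6772, and OMA1, the protease that cleaves DELE1, was at rank 4932. The ratio of DELE1 to OMA1 in TPM accordingly ranged from 0.948 in an SLC7A2-line library without dox to 1.93 in an SLC7A1-line library with dox. In the SLC7A2 line the ratio was 1.12 and 0.993 with dox, and 1.12 and 0.948 without dox. In the SLC7A1 line the ratio was 1.93 and 1.46 with dox, and 1.35 and 1.23 without dox.

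Genes of the surrounding pathways were read from 10 lists chosen by function. The co-chaperones and membrane scaffolds (12 of 12 tested), which include the prohibitins PHB1 and PHB2, had a median log2 dox effect of -0.0056 over both lines. PHB2 changed by 0.01 ± 0.08 and PHB1 by -0.09 ± 0.10. The other mitochondrial proteases (14 of 14 tested) had a median of -0.07, with 12 of 14 below 0 and PMPCA, a subunit of the presequence peptidase, at -0.07 ± 0.10. Of all 17503 entries, 9047 were above 0 in that comparison. The partners of OMA1 and DELE1 (10 of 10 tested) had a median of 0.04, and EIF2AK1, the kinase that DELE1 activates, was at -0.06 ± 0.13. No gene of these lists was called by edgeR, DESeq2 or limma with dox over both lines.

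The mitochondrial translation factors, the machinery closest to the known side effect of dox, had a median log2 dox effect of -0.03 over 17 of 17 genes, with TUFM, the elongation factor, at -0.08 ± 0.11. Genes of mitochondrial genome upkeep (16 of 16 tested) had a median of -0.0078 and those of protein import (15 of 15 tested) of -0.01. The mitophagy genes (10 of 11 tested) had a median of -0.05. Of the 13 mRNAs encoded in mitochondrial DNA, 0 were listed in the files, so these templates of the mitochondrial ribosome were not analysed here. The proteins made from them were not measured. In these 4 tested lists edgeR called 0 genes and 0 had an unadjusted p under 0.05 with dox over both lines.

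The integrated stress response targets lie downstream of OMA1 and DELE1 and of other stress kinases. In the SLC7A1 line, the median of their fitted dox effects changed sign when certain single libraries were left out, which breaks a same-numbered pair. Of 20 of 25 targets tested, 20 lay above 0 with dox in the SLC7A1 line and 19 in the SLC7A2 line, with a median over both lines of 0.20. Of all 17503 entries, 8619 lay above 0 in the SLC7A1 line and 8985 in the SLC7A2 line. PHGDH, the first enzyme of serine synthesis, was at 0.17 ± 0.17 and SHMT2, a mitochondrial folate enzyme, at 0.10 ± 0.11. By edgeR 0 of the 20 were called and 1 had an unadjusted p under 0.05, PSAT1, a serine synthesis enzyme named after its value was seen, at 0.47 ± 0.17. DESeq2 called 0 without a block. With the block, over both lines, DESeq2 called 4, against 89 entries (0.508%), and edgeR 0, against 3 entries (0.0171%). With the block in edgeR, 20 of 20 lay above 0 over both lines, with a median of 0.21. At an unadjusted p under 0.05 by that fit there were 11, against 1020 of 17503 entries. DELE1 and OMA1 themselves were at 0.08 ± 0.10 and -0.04 ± 0.13 in edgeR's fit without a block. The median of the targets in the SLC7A1 line was 0.22 with all libraries. Without the dox library numbered 1 it was -0.19, with 5 of 20 above 0, and without the no-dox library numbered 2 it was -0.10, with 6 of 20 above 0. Without the dox library numbered 2 it was 0.57, and without the no-dox library numbered 1 it was 0.535. The median over both lines ran from 0.07 to 0.37 over these 4 settings. Each of them compares libraries of unlike number, and numbers differed for this list. Its median log2 CPM ratio of number 2 over number 1 was -0.63 with dox and -0.70 without dox in the SLC7A1 line. In the SLC7A2 line the median was 0.21 with all libraries, 0.39 without the dox library numbered 1, 0.09 without the dox library numbered 2 and 0.12 without both libraries numbered 2. Within same-numbered pairs, the list's median log2 CPM ratio of dox over no dox was above 0 in both lines. For numbers 1 and 2 it was 0.12 and 0.34 in the SLC7A2 line, and 0.26 and 0.16 in the SLC7A1 line. Between the lines, the targets had a median fitted difference of -0.35, with 14 of 20 below 0. By edgeR 0 were called and 5 had an unadjusted p under 0.05, against 2242 of 17503 entries (12.8%). Their median log2 CPM ratio of the SLC7A2 line over the SLC7A1 line depended on the number. It was -0.83 with dox and -0.63 without dox for number 1, and 0.35 and 0.05 for number 2.

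The cytosolic heat shock genes lay above 0 between the lines, as HSPD1 and HSPE1 did, with no call in edgeR without a block. Between the lines, 17 of 17 tested genes had a fitted difference above 0, against 8657 of 17503 entries. Their median was 0.62, against -0.0037 over all entries. The median was -0.35 for the integrated stress response targets and between -0.10 and 0.17 for the other tested lists. By edgeR without a block 0 of the 17 heat shock genes were called. At an unadjusted p under 0.05 there were 13, against 2242 entries (12.8%). DESeq2 without a block called 5, against 351 entries (2.01%), and limma 0. With the block, edgeR called 10 of the 17, against 256 of 17503 entries, and DESeq2 called 11, against 1450. Across lines, though, the libraries of that block share only a number. With same-numbered libraries of a line summed, edgeR called 0 of the 17, and 11 had an unadjusted p under 0.05. The share of all entries at that p in the summed fit was not counted. HSPA8, the constitutive cytosolic HSP70, had 739 and 1651 TPM with dox and 751 and 1786 TPM without dox in the SLC7A2 line. In the SLC7A1 line HSPA8 had 266 and 629 TPM with dox and 281 and 605 TPM without dox. All 4 SLC7A2-line values of HSPA8 exceeded all 4 SLC7A1-line values on TPM, as in 10.2% of all entries, and on CPM, as in 4.35%. The fitted difference of 1.31 ± 0.39 had an adjusted p of 0.321 by edgeR. HSP90AB1, the constitutive HSP90, differed by 0.17 ± 0.13. With dox over both lines the list's median was 0.03, and 11 of 17 genes were above 0.

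Number 2 exceeded number 1 in the median of the cytosolic heat shock genes by 0.56 and 0.46 on the log2 CPM scale in the SLC7A2 line with and without dox, and by 0.64 and 0.37 in the SLC7A1 line with and without dox. Of the 17 genes tested, 13 were higher in number 2 in all 4 groups on CPM and 1 was lower in all 4. Of the 7879 entries whose mean log2 CPM reached 4, 18.9% were higher in all 4 groups and 18.1% were lower. The 17 genes were not limited to that level. Without the SLC7A2-line libraries numbered 2, 17 of 17 genes still had a difference above 0 between the lines, with a median of 0.35 and 2 at an unadjusted p under 0.05. How many of all entries reached that p in this fit was not counted. In RefSeq promoter windows, 6 of the 16 list genes with a window held a run of at least 3 heat shock units. These 16 genes had 26 windows. Of all 35116 windows, 172 (0.49%) held such a run. Myeloid marker sums were also lowest in the SLC7A2-line libraries numbered 2, at 7677 TPM with dox and 9900 TPM without dox, and their part in the heat shock values was not tested.

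**Figure D5:**
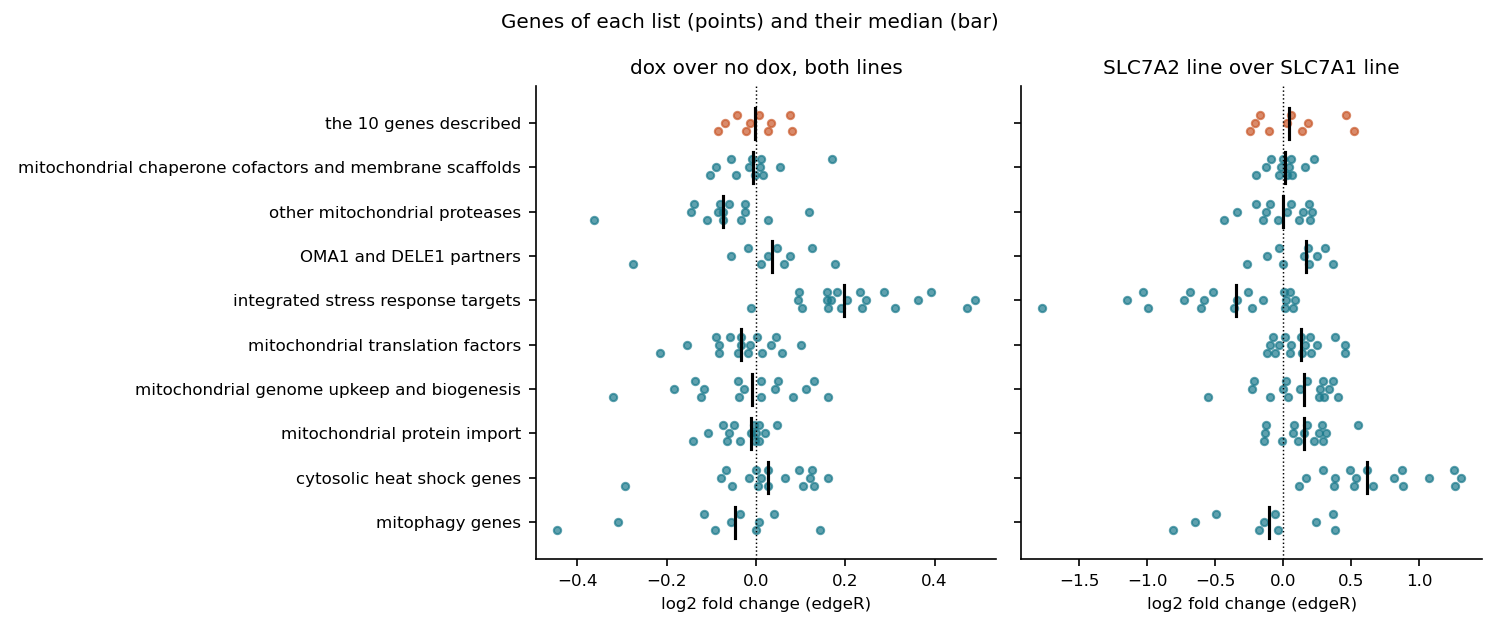
Fitted log2 fold changes of every tested gene in each list (points) with the list median (bar), for dox over both lines (left) and the SLC7A2 line over the SLC7A1 line (right), on axes of different range. The 10 genes described centre on 0 with dox, the integrated stress response targets have a median of 0.20 with dox, and the cytosolic heat shock genes a median of 0.62 between the lines.

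Some reads of these genes could belong to other entries. RefSeq names pseudogenes of HSPD1, HSPE1 and HSPA9, of which 0 are listed in the files, so reads shared with them would be counted on the members. The read-through entry HSPE1-MOB4 held at most 22.2 counts in a library, and 0.167% of the HSPE1 counts when all 8 libraries were summed. DNASE1, which overlaps TRAP1, held 1.94% of its counts, DAB1, which overlaps OMA1, 0.13%, and RPL36, a ribosomal protein gene that overlaps LONP1, had 12210 to 17740 counts. Whether reads were counted by strand is not stated in the labels or headers, so LONP1 is the member whose level could most be affected by an overlapping gene.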

How the data were processed

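The authors deposited, for each of 8 libraries, expected counts, FPKM, TPM and gene lengths per the file headers. The build hg38 and the tools RSEM 1.3.1, HISAT, DESeq2 1.4.5 and Bowtie2 2.3.4.3 are named, without roles, in the submitters' processing notes. The deposited FPKM was not used, and the deposited TPM gave levels. Depth was 17309132 to 18441833 expected counts per library, so a floor of 3 counts is 0.163 to 0.173 CPM, for counting error only. Groups came from the sample titles. The deposited expected counts were rounded, filtered with filterByExpr (minimum count 10, total 15), TMM-scaled and tested with edgeR 4.0.16 in R 4.3.3 on 4 group means, or on line plus dox for effects over both lines, with Benjamini-Hochberg adjustment at 0.05 over 17503 entries. An SE was taken as the size of the log2 fold change divided by the root of its F statistic. Checks on simulated data used the same code. Same-numbered dox and no-dox libraries deviated together (r = 0.631 in the SLC7A1 line, 0.724 in the SLC7A2 line), so numbers pair libraries within a line. Across lines r was 0.0941 and 0.202. Alternatives were DESeq2 1.42.0, limma 3.58.1 on log2(TPM + 1), DESeq2 size factors, no filter, Entrez entries only, a replicate block and leaving libraries out. The 10 members and the lists were chosen with earlier results of these data known. Genes named are all members, the called or otherwise the 2 most abundant genes of a list, and the 3 genes nearest to HSPD1 and DELE1; other named genes were chosen after their values were seen. The result of 1 marker list is not reported here.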

Additional observations from a re-analysis of the deposited data

How the results depend on the processing

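Whether a member was called was the same under every alternative for the 4 dox comparisons, in which 0 members were called throughout, while signs of effects this near 0 turned often. With limma on log2 TPM, which shifted the median of all entries by 0.05 for dox in the SLC7A2 line and by 0.09 between the lines, these fitted log2 values changed sign: for dox in the SLC7A2 line LONP1 0.025 and CLPP 0.0043; for the difference between the lines' dox effects HSPA9 0.053 and CLPX 0.015; for dox over both lines HSPE1 0.0012, CLPP 0.021 and OMA1 0.0051; and between the lines CLPX 0.063. Without both SLC7A2-line libraries numbered 2 they were: for dox in the SLC7A2 line LONP1 0.029 and CLPX -0.095; for the difference HSPA9 0.0052 and TRAP1 0.050; for dox over both lines HSPE1 0.066, CLPP 0.0014 and CLPX -0.012; and between the lines HSPA9 -0.020 and TRAP1 0.027. The cause was not tested.

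Leaving out 1 library at a time, the values that changed sign ranged as follows, and a group left with 1 library is assumed to vary like the others. For dox in the SLC7A2 line: HSPD1 -0.15 to 0.29, HSPE1 -0.34 to 0.084, HSPA9 -0.076 to 0.24, TRAP1 -0.43 to 0.14, LONP1 -0.21 to 0.11, CLPX -0.088 to 0.14, OMA1 -0.049 to 0.16 and DELE1 -0.077 to 0.21, with the median of the members -0.083 to 0.0014. For dox in the SLC7A1 line: HSPD1 -0.41 to 0.39, HSPE1 -0.40 to 0.50, DNAJA3 -0.14 to 0.070, TRAP1 -0.24 to 0.12, LONP1 -0.035 to 0.15, CLPP -0.032 to 0.086, CLPX -0.25 to 0.39 and OMA1 -0.32 to 0.066, with the median -0.12 to 0.095. For the difference between the lines' dox effects: HSPD1 -0.34 to 0.46, HSPE1 -0.65 to 0.26, HSPA9 -0.16 to 0.15, DNAJA3 -0.18 to 0.035, TRAP1 -0.38 to 0.19, LONP1 -0.27 to 0.059, CLPX -0.37 to 0.27, OMA1 -0.015 to 0.37 and DELE1 -0.17 to 0.11, with the median -0.13 to 0.076. For dox over both lines: HSPD1 -0.13 to 0.19, HSPE1 -0.25 to 0.12, TRAP1 -0.20 to 0.025, LONP1 -0.051 to 0.077, CLPP -0.056 to 0.0092, CLPX -0.090 to 0.16 and OMA1 -0.10 to 0.057, with the median -0.087 to 0.053. Between the lines: DNAJA3 -0.0058 to 0.080 and CLPX -0.22 to 0.036. Entries called ran from 0 to 1 for dox in the SLC7A2 line and from 0 to 1 between the lines.

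Against 0 called entries in edgeR, without a filter 2 were called for dox in the SLC7A1 line, 2 for dox over both lines and 3 between the lines. DESeq2 called 10 for dox in the SLC7A2 line, 9 for dox in the SLC7A1 line, 20 for the difference, 1 for dox over both lines and 351 between the lines, and limma 2, 2 and 3 in the first 3 of these. Without both SLC7A2-line libraries numbered 2, 1 was called for dox over both lines and 1 between the lines, and with same-numbered libraries of a line summed, 3 between the lines. Under limma the median of the members was 0.064 for dox in the SLC7A2 line and 0.18 between the lines. With the replicate block, edgeR called 1 entry for dox in the SLC7A2 line, 2 in the SLC7A1 line, 3 over both lines and 256 between the lines, and DESeq2 called 27, 45, 89 and 1450 of these and 21 for the difference. Across lines the samples share only a number. There the block in edgeR gave HSPD1 0.49 with an adjusted p of 0.0417, and in DESeq2 called HSPD1 (adjusted p 8.82e-08), HSPE1 (4.99e-05) and LONP1 (0.0187). The block across lines also called 10 of the 17 cytosolic heat shock genes in edgeR and 11 in DESeq2. With 2 libraries in a group, the spread between libraries rather than depth limits what can be seen.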
